A study of Ulva lactuca with 4 samples.

Results

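In the green seaweed Ulva lactuca, 78 assembled contigs had more reads in each successive library, from submerged thalli through 24 h and 36 h to 72 h of desiccation. They were chosen from read counts scaled by a size factor per library. A contig was taken when it had at least 20 scaled reads in the control, was at least 2-fold and under 8-fold above the control at 24 h, at least 1.5-fold above 24 h at 36 h, and at least 1.5-fold above 36 h at 72 h. These ratios were computed after adding 1 to each scaled count. The 78 contigs are 0.174% of the 44802 contigs that had at least 20 scaled reads in the control, out of 105451 contigs in all. Since the counts of every library chose them, their rise is given below as a description with no test.

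The study set desiccated thalli against thalli that were always submerged, with 1 library each: the control, and thalli held at 20% moisture for 24 h, 36 h or 72 h. The thalli had been collected and acclimatised to the laboratory, per the series' design text, and the sources used here name no strain and give no age. At what time the control was taken is not stated there either. The libraries held between 52643595 and 74243310 reads counted on contigs, and reads fell on 81547 contigs in the control, 87832 at 24 h, 87806 at 36 h and 98649 at 72 h. There were no replicates, so the spread between thalli is unknown, and the 95% intervals cover counting error only. In bulk RNA, fewer cells carrying a transcript and less of it per cell cannot be told apart, and neither can a change of a transcript from a change in the rest of the library.

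Ulva lactuca grows as a thin sheet in the intertidal zone, where a falling tide exposes it to air, and its cells have no cuticle or stomata to hold back water. Drying of a photosynthetic tissue concentrates the cell sap, disturbs membranes and favours the formation of reactive oxygen species, and tolerant algae and plants are known for protective proteins, compatible solutes, antioxidants and repair of the photosynthetic apparatus. Which of these, if any, the 78 contigs encode was not analysed here, because the tables used here name contigs by assembly identifiers and pair them with no gene, protein or sequence. In an identifier such as c24342_g1_i9, the part before the i number names the assembly cluster, which may stand for 1 gene present as several variants. Contig lengths are not in these tables, so reads are compared between libraries for a contig and not as levels between contigs.

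The members lay in 35 clusters. Their median scaled read count was 61.6 in the control, 192 at 24 h, 348 at 36 h and 1064 at 72 h. The lowest and highest members had 20.3 and 2682 scaled reads in the control, 42.6 and 14140 at 24 h, 106 and 33173 at 36 h, and 216 and 80092 at 72 h. The members took 0.0225% of the reads of the control library, 0.0794% at 24 h, 0.181% at 36 h and 0.424% at 72 h. They were a small part of each library, and the rise of their joint share follows from the rule.

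**Figure D1:**
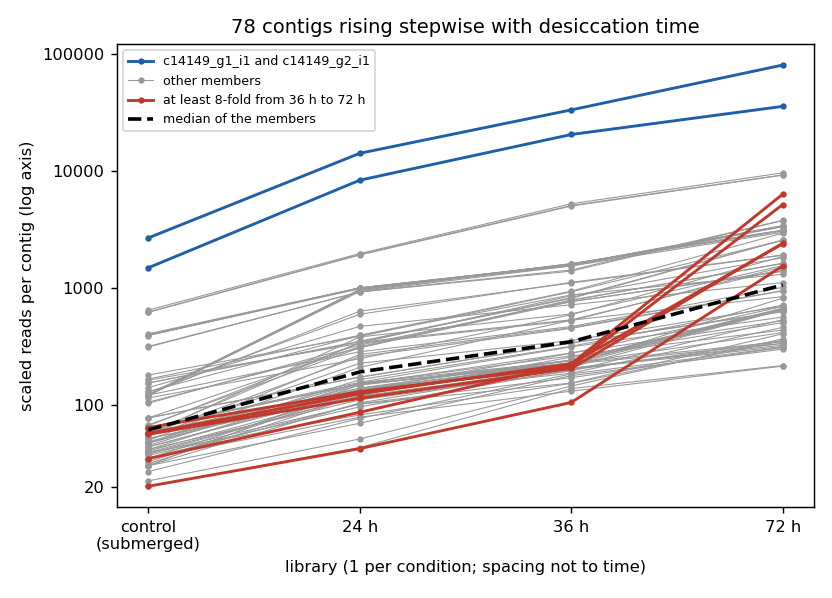
Scaled reads of the 78 members (log axis) in the 4 libraries, 1 line per contig, with the median as a dashed line. The median goes from 61.6 in the control to 1064 at 72 h; the 5 red lines run among the others up to 36 h and then climb at least 8-fold, and the 2 blue lines are the contigs with the most reads.

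The contigs with the most scaled reads over the libraries were c14149_g2_i1 and c14149_g1_i1, which carry the same c number and are the only contigs of their clusters. The contig c14149_g2_i1 had 2373 reads in the control, 15919 at 24 h, 38010 at 36 h and 71282 at 72 h. It was 5.27-fold (95% interval 5.05 to 5.51) above the control at 24 h, 2.35-fold (2.30 to 2.39) above 24 h at 36 h, and 2.41-fold (2.38 to 2.44) above 36 h at 72 h. The contig c14149_g1_i1 had 1319, 9386, 23436 and 31650 reads in the same order. Its steps were 5.59-fold (5.28 to 5.93), 2.45-fold (2.40 to 2.51) and 1.74-fold (1.71 to 1.77), so it parted from c14149_g2_i1 mainly at the last step. Together these contigs took 31.2% of the members' control reads and 45.6% of those at 72 h. The other members held 0.0154%, 0.0453%, 0.0942% and 0.231% of the successive libraries, a growth that the rule fixes.

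Few of the contigs raised at 24 h rose at least 1.5-fold at each later step, and smaller rises are not counted here. At 24 h, 5995 contigs (13.4% of those over the control minimum) stood 2-fold to under 8-fold above the control. Of these, 2935 were at least 1.5-fold lower again at 36 h, 2473 stayed within 1.5-fold of their 24 h value, and 587 (9.79%) were at least 1.5-fold higher. Among all contigs over the control minimum, 22.8% were at least 1.5-fold higher at 36 h than at 24 h. The 24 h library stands in both ratios, so an error in a 24 h count moves them in opposite directions. Of the 587 contigs, 78 (13.3%) rose at least 1.5-fold again by 72 h, 349 (59.5%) stayed within 1.5-fold of their 36 h value and 160 (27.3%) fell at least 1.5-fold. Among all contigs over the minimum, 23% rose at least 1.5-fold between 36 h and 72 h. The 36 h library likewise stands in both later ratios, where an error in its count acts in opposite directions. Nothing is therefore read from the gap between 9.79% and 22.8%, or from that between 13.3% and 23%.

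**Figure D2:**
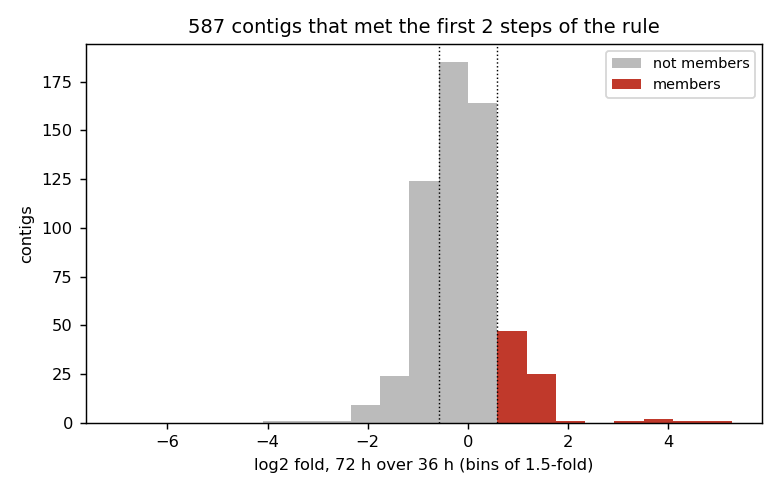
Number of contigs (vertical axis) by log2 fold between 36 h and 72 h, in bins of 1.5-fold, for the 587 contigs that met the criteria at 24 h and 36 h. The dotted lines mark 1.5-fold lower and higher; the 78 members lie to the right, 349 contigs between the lines and 160 to the left.

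The upper limit at 24 h left out a single contig. Of the 663 contigs that were 8-fold or more above the control at 24 h, 1 met both later criteria, at 23.8-fold, and the member nearest below the limit stood at 7.92-fold. The other limits cut through a continuous range. At 36 h the nearest contigs inside and outside had ratios of 1.502 and 1.494, at 72 h 1.5003 and 1.498, at 24 h 2.01 and 1.98, and in the control 20.3 and 19.2 scaled reads. Of the members, 22 lay within 10% of the limit at 36 h, and 34 contigs missed that limit alone by less than 10%.

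The opposite course was described by the same rule turned round, with at least 20 scaled reads at 72 h. It gave 49 contigs in 26 clusters that fell stepwise, against the 78 in 35 clusters that rose. Over all 15513 clusters with a contig above the control minimum, 26 held a contig of that list. None of the 35 member clusters did, which is near that share, and nothing is read from it.

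The first step was the largest for most members. The fold over the control at 24 h had a median of 2.92 and ranged from 2.01 to 7.92. The fold from 24 h to 36 h had a median of 1.76 and ranged from 1.502 to 3.14. That from 36 h to 72 h had a median of 2.10 and ranged from 1.5003 to 27.9. The largest fold was that of control to 24 h for 59 members, of 36 h to 72 h for 16 and of 24 h to 36 h for 3. The rule asks for 2-fold at the first step and 1.5-fold at the later ones, which favours the first. On the log2 scale, the median share of a member's whole rise was 43.3% for the first step, 23.2% for the middle step and 29.3% for the last.

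The later steps have the same minimum. Their order is still not free of the rule, since the 24 h library stands in the first and the middle ratio, and a minimum at 24 h favours a smaller middle step. The step from 36 h to 72 h was larger than that from 24 h to 36 h in 51 of 78 members (65.4%). With 1 contig per cluster, that with the most scaled reads, it was larger in 22 of 35. The last step also took 36 h and the middle step 12 h. Per hour, the median log2 rise was 0.0683 between 24 h and 36 h and 0.0297 between 36 h and 72 h, and it was larger in the earlier interval in 74 of 78 members. The equal minimum asks for 0.0487 per hour in the earlier interval and 0.0162 in the later one, so the rule itself pulls these values apart. In scaled reads rather than folds, the largest gain came in the last step for 75 members and in the middle step for 3. The rule largely fixes this. A last fold of at least 1.5 gains more reads than any middle fold under 2, and 26 members had a middle fold of 2 or more. Nothing is read from these numbers.

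**Figure D3:**
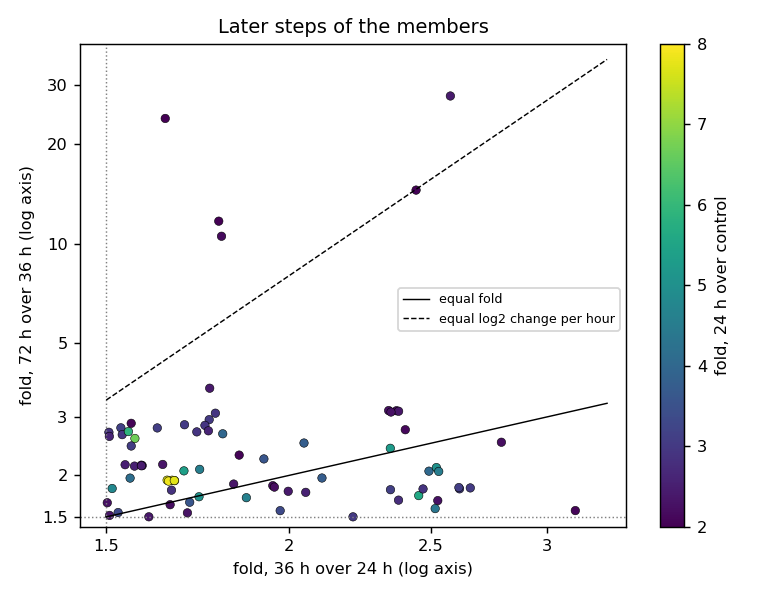
Fold from 36 h to 72 h against fold from 24 h to 36 h for the 78 members (both log axes), coloured by the fold over the control at 24 h. Dotted lines are the 1.5-fold limits; 51 points lie above the solid line of equal fold, 4 above the dashed line of equal log2 change per hour, and 5 stand apart at over 10-fold in the last step.

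At the first step, the highest lower bounds of the interval belonged to c27472_g3_i1 and c27472_g3_i5, of 1 cluster. The contig c27472_g3_i1 had 107 reads in the control, 1086 at 24 h, 1847 at 36 h and 2768 at 72 h, and stood 7.98-fold (6.53 to 9.82) above the control at 24 h. The counts of c27472_g3_i5 were nearly the same, with 109, 1097, 1848 and 2761 reads, and its fold at 24 h was 7.91 (6.49 to 9.72). Both rose most at 24 h and by 1.67-fold and 1.66-fold to 36 h, close to the lower limit of that step.

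At the middle step, c23092_g1_i2 and c23092_g1_i1 had the highest lower bounds. The contigs c51592_g1_i1 and c2831_g1_i1 had higher middle folds, 3.19 and 2.83, on fewer reads and with lower bounds of 2.30 and 2.09. The contig c23092_g1_i2 had 574, 2219, 6011 and 8563 reads from the control to 72 h, and rose 2.66-fold (2.53 to 2.80) between 24 h and 36 h. For c23092_g1_i1 the reads were 553, 2180, 5806 and 8218, and the middle step was 2.62-fold (2.49 to 2.75). In both, the fold shrank from step to step, from 3.04 and 3.10 at 24 h to 1.83 and 1.82 at 72 h.

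At the last step, 5 members of 4 clusters stood apart, with at least 10.5-fold between 36 h and 72 h, while the next highest member was at 3.66-fold. They were singled out after their values were seen. The contig c25747_g1_i1 had 31 reads in the control, 98 at 24 h, 259 at 36 h and 5632 at 72 h. Its last step was 28.0-fold (24.7 to 31.8) and its fold over the control at 72 h was 181 (127 to 266), the highest of the members. The contig c25724_g1_i2 had 57, 147, 247 and 4596 reads, a last step of 24.0-fold (21.1 to 27.3) and 80.2-fold (61.7 to 106) over the control. In both, the last step was far larger than the steps before it.

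The other members of this kind were c22567_g1_i6 with 18, 48, 121 and 1375 reads, and c19898_g1_i2 and c19898_g1_i3, which had 50 and 51 reads in the control and 2152 and 2126 at 72 h. At 24 h all 5 lay between 2.01-fold and 2.44-fold above the control, near the lower limit of the rule. The last step made up 62.4% to 72.6% of their log2 rise, against a median of 27.4% in the other 73 members. Their clusters held 10 further contigs, of which 7 fell short of 2-fold at 24 h. These 10 contigs rose between 10.4-fold and 23.7-fold from 36 h to 72 h, close to the members beside them. Over all contigs above the control minimum, 2.68% rose at least 8-fold at the last step, 1201 contigs in all, of which 5 were members.

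The rise over the control at 72 h had a median of 14.3-fold in the members and ranged from 5.34-fold to 176-fold. A 4-fold difference at 72 h follows from the rule, and all 78 had it, against 7.11% of all contigs over the control minimum. By 72 h, 71 members exceeded the control 8-fold or more, where 2.98% of all contigs did, and 26 did so 16-fold or more, where 1.09% did. At 36 h, 62 members exceeded it 4-fold or more, with 4.05% of all contigs. At 24 h the number was 19, with 4.72% of all contigs, and the same 19 passed 4-fold at each duration, where 1.68% of all contigs were. These shares rest on the ratios that chose the members, and nothing is read from the gap between them.

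The members' reads limit how exactly a step is known. In the control, 32 members had fewer than 50 reads and 5 had at least 500. The intervals use the counts that chose the members, so a bound above 1 is largely fixed by the rule. The lower bound of the counting interval was above 1 at every step in all 78 members. It reached the limit of the rule at every step in 21 members, at the first step in 47, at the middle step in 40 and at the last step in 64. The median rise over the control at 72 h was similar across depth, with 13.6-fold in the members under 50 control reads, 14.1-fold in the 41 with at least 50 and under 500 reads, and 14.8-fold in the 5 with more. The steps differed more, with median middle steps of 1.76, 1.67 and 2.61 and last steps of 2.38, 2.09 and 1.83 in that order. The 5 members lay in 3 clusters.

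Of the members, 91.0% lay in clusters of several contigs, where 84.3% of all contigs over the control minimum did. Each cluster with a member gave 2.23 members on average, while the contigs over the control minimum came at 2.89 per cluster. Of the 35 clusters, 19 held several members, 62 in all, and 16 held 1. The cluster c24342_g1 gave the most, with 8 of its 9 contigs, which stood 12.6-fold to 16.1-fold above the control at 72 h. All 5 contigs of c26469_g1 were members, at 14.1-fold to 17.5-fold. In c27136_g1, 5 of 14 contigs were members, and their folds at 72 h lay between 8.35 and 8.55. Among the 96 pairs of members within a cluster, 38 had counts within 10% of each other in each of the 4 libraries. The sources used here do not say how reads matching several contigs were counted, so such contigs may hold the same reads. With 1 contig per cluster, the median fold at 72 h was 13.9 and the largest step was the first in 25 of 35 clusters.

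The remaining contigs of these clusters were looked at next, since the rule had left them out. There were 96 of them in 23 clusters, 80 with at least 20 scaled reads in the control and 16 below. Of the 80, 43 (53.8%) rose by any amount at every step, against 5.88% of all contigs over the control minimum. Above the control at 72 h were 71 of them, and the median fold at 72 h was 7.04, where the median of all contigs over the minimum was 0.898. A partner may share reads with a member or with another partner, so the 80 are not separate cases. Nothing is read from their gaps to all contigs. Of the 80, 24 failed the 36 h step alone, 15 the minimum at 24 h alone and 12 the 72 h step alone. The other 29 failed several criteria.

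**Figure D4:**
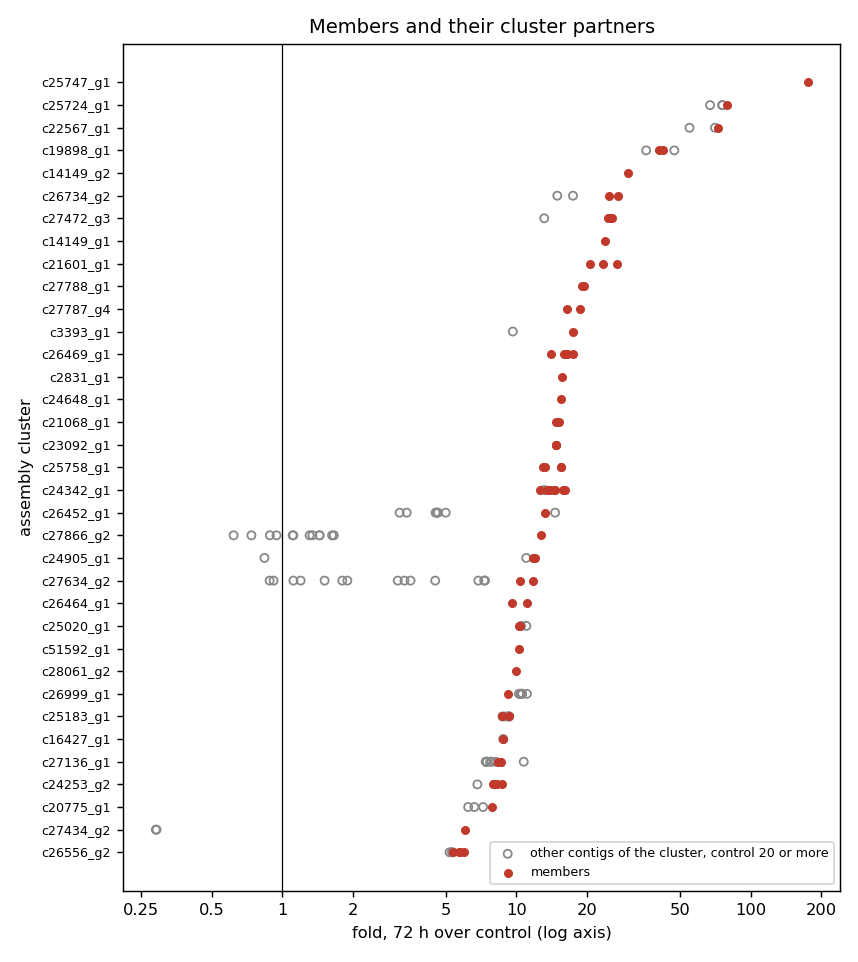
Fold over the control at 72 h (log axis) of the 78 members (filled) and of the 80 other contigs of their clusters with at least 20 scaled control reads (open), 1 row per cluster in order of the members' median. The open points of c27866_g2 and c27434_g2, most of those of c27634_g2 and c26452_g1 and 1 of c24905_g1 lie well to the left of the filled ones of their cluster.

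Partners that did not rise at every step numbered 37, and 33 of them lay in 3 large clusters, c27634_g2 with 14, c27866_g2 with 12 and c26452_g1 with 7. Those 3 clusters held 34 of the 80 partners, so the 53.8% describes no typical cluster. These clusters were picked after their values were seen. In c27866_g2 the single member c27866_g2_i10 had 48, 257, 408 and 623 reads from the control to 72 h. Its cluster summed to 1.03-fold of the control at 24 h and 1.33-fold at 72 h, so the member rose within a cluster that as a whole stayed near its control value at these times. At 36 h the sum stood at 0.641-fold of its 24 h value, while the member was higher. In c26452_g1 the member c26452_g1_i2 had 27, 169, 261 and 371 reads and took 3.28% of the cluster's reads at 72 h. That cluster as a whole rose 3.81-fold at 24 h and then stood at 0.804-fold of that value at 36 h.

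The partners farthest below the control at 72 h were c27434_g2_i1 and c27434_g2_i3, at 0.287-fold (0.246 to 0.335) and 0.289-fold (0.248 to 0.337). The contig c27434_g2_i1 had 744 reads in the control, 124 at 24 h, 283 at 36 h and 215 at 72 h, and c27434_g2_i3 had 749, 126, 281 and 218. The member of that cluster, c27434_g2_i2, went from 31 reads in the control to 89, 151 and 192. The contigs of this cluster therefore differed widely in the control and held similar numbers of reads at 72 h.

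Counts summed over all contigs of a cluster were above the control at 72 h in 34 of the 35 member clusters, the exception being c27434_g2 at 0.408-fold. The sum rose at every step in 31 clusters and met the whole rule in 21. Of the 14 that missed it, 6 fell short at the 36 h step alone, 3 at the 24 h step alone, 3 at the 72 h step alone and 2 at several. Over the whole assembly, the sums of 31 clusters met the rule, 10 of them with no member contig.

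The authors' deposited tables compare pairs of libraries and label each contig as upregulated, downregulated or neither. By the status in the authors' deposited tables, 60 members (76.9%) were up at 72 h against the control. Of all contigs with a p-value, 2.72% were. At 36 h, 24 members (30.8%) were up against the control, beside 1.72% of all contigs. At 24 h the number was 5 (6.41%), beside 1.88% of all contigs. Between desiccated libraries, the authors' deposited tables called 17 members (21.8%) up at 72 h against 24 h, beside 2.55% of all contigs. Against 36 h, they called 8 members (10.3%) up at 72 h, beside 2.72% of all contigs. The status calls of all 5 tables coincide with p-values up to 0.05 where either library has 100 reads or more, as the values show. The 5 called at 24 h were of 1 cluster, c27472_g3. These calls come from the counts that chose the members, so nothing is read from their excess over all contigs, and no replicates stand behind the p-values.

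**Figure D5:**
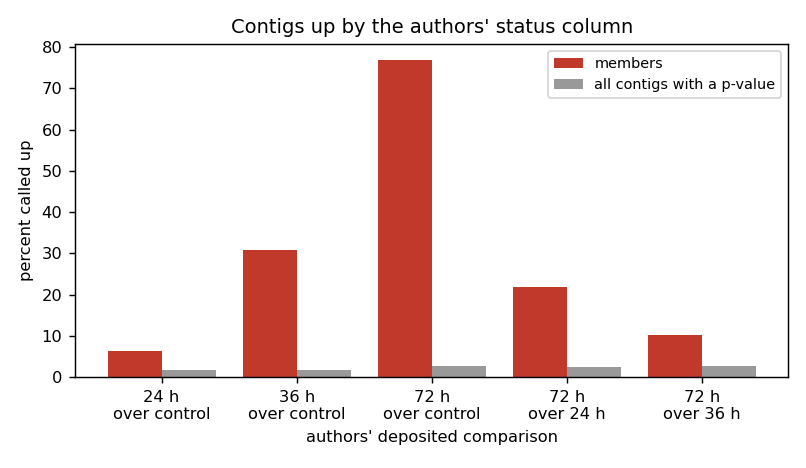
Percent of contigs called up by the authors' status column, for the 78 members and for all contigs with a p-value, in the 5 deposited comparisons. The members' share goes from 6.41% at 24 h to 76.9% at 72 h against the control; the bars for all contigs lie between 1.72% and 2.72%.

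By an adjusted p-value under 0.05 in the authors' deposited tables, 3 members were higher at 72 h than in the control. Of all contigs, 0.474% were. No member was at 24 h, beside 0.331% of all contigs, or at 36 h, beside 0.334%. At 72 h these were c25747_g1_i1, c25724_g1_i2 and c22567_g1_i6, with adjusted p-values of 0.00213, 0.0107 and 0.0383 in the authors' deposited table. Against 24 h the same 3 contigs were called at 72 h, beside 0.59% of all contigs. Against 36 h, all 5 members with the steep last step were called and no other member, beside 0.971% of all contigs. The 5 were singled out by their fold between these same libraries, so this match largely follows from that choice. In the authors' deposited tables, the unadjusted p-value was at most 0.05 for 5 members at 24 h and for 24 at 36 h, the same numbers as by status. No share of all contigs is given for this criterion. All calls in this paragraph come from the counts that chose the members, and nothing is read from them.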

How the data were processed

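RNA sequencing reads were counted on contigs of a de novo assembly in 4 libraries, 1 per condition. Per the submitters' processing notes, the tools were cutadapt, Bowtie2 and DESeq, with no version; the sources used here state neither settings nor assembler. Each of 5 deposited tables gives raw read counts for a pair of libraries. Per the file headers it also gives base means, a signal made by dividing counts by size factors. The fold change of a pair is a linear ratio deposited by the authors, and so are the p-value and adjusted p-value. Count columns repeated between tables were identical in 6 of 6 cases.

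Scaling used median-of-ratios size factors from contigs read in all 4 libraries (0.885 for the control, 1.13 for 24 h, 1.15 for 36 h, 0.890 for 72 h). Folds of lists use scaled counts plus 1. Folds of named contigs use scaled counts as they stand, with exact Clopper-Pearson 95% intervals. With 1 library per condition, no test was run. Named contigs were the 2 members with the highest lower bound at each step and at 72 h over the control, the 2 with the most scaled counts, and the 2 partners lowest at 72 h over the control. Other named contigs and clusters were chosen after their values were seen. The code of the rule was checked on simulated counts with counting error only and planted steps above the limits. That check holds no spread between thalli and says nothing on whether the members would recur. The members and this choice of measures were made with earlier results of these data known. Alternatives were other scalings, limits and units of counting. Python 3.11.15, pandas 2.3.3, scipy 1.17.1 and, for TMM factors, edgeR 4.0.16 were used.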

Additional observations from a re-analysis of the deposited data

How the results depend on the processing

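The number of contigs depends on the limits more than on the scaling. It was 93 with library totals, 68 with the upper quartile and 78 with TMM, of which 68, 52 and 75 were among the 78 reported. It was 77 with the authors' scaled values (71 in common). A control minimum of 50 gave 49 contigs and one of 200 gave 12. A looser limit of 5/4-fold on the later steps gave 219 contigs and one of 2-fold gave 13. Counts summed per cluster gave 31 clusters. The median fold at 72 h over the control, 14.3 as reported, moved most with a control minimum of 200 (11.9), the looser later steps (9.29) or those of 2-fold (19.4), and cluster sums (17.3); under the other alternatives it lay between 12.6 and 14.8. The share of partners rising at every step was 73.2% with a control minimum of 50 and 100% with one of 200 and with 2-fold later steps. The 100% values belong to the lists of 12 and 13 contigs, in 5 and 7 clusters. Under the other alternatives that share lay between 48.5% (upper quartile) and 64.2% (looser later steps), with 53.8% as reported. The share of members with a larger last than middle step lay between 54.3% and 72.1% over the 14 alternatives tried, 2 of which were chosen after seeing the data. In the authors' deposited tables, the adjusted p-value in place of the status called 0 members at 24 h and 0 at 36 h over the control, 3 at 72 h over the control, 3 at 72 h over 24 h and 5 at 72 h over 36 h. Library totals shifted the median log2 ratio of all contigs over the control minimum by -0.15 at the 24 h step, and the upper quartile shifted it by -0.28 at the 72 h step; the limits of the rule then fall on ratios moved by these amounts. No paired analysis was possible because each condition has 1 library and the results come from no test. No library could be left out, since the rule uses all of them. The share of partners has no value for cluster sums.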

Other observations

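Contigs that met the criteria at 24 h and 36 h but not at 72 h passed the same earlier limits as the members. The 349 contigs that stayed within 1.5-fold of their 36 h value lay in 170 clusters and had a median fold of 2.68 at 24 h and of 1.82 from 24 h to 36 h, where the members had 2.92 and 1.76. At 72 h their median fold over the control was 5.41. The 160 contigs that fell again lay in 89 clusters, with medians of 2.54, 2.04 and, at 72 h over the control, 2.89. The median scaled control count was 139 in the first of these lists, 97.8 in the second and 61.6 in the members. The rule sets the lists alike up to 36 h and divides them at 72 h, so nothing is read from either. Over all 15513 clusters with a contig above the control minimum, 170 held a contig of the first of these lists and 89 one of the second. Among the 35 member clusters, 6 held a contig of the first list, 12 contigs in all, and none held one of the second. The 12 contigs may share reads with members. None of 35 is near the share of the second list, and nothing is read from these counts.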
